A study of Mus musculus with 13 samples.

Results

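The collagen chain genes of the mouse, which encode the alpha chains of the collagens, were described in aortic endothelial cells (ECs) and heart tissue of mice with and without Hmox2. Members were all protein-coding genes of the GENCODE M39 annotation whose symbol is Col, a number, the letter a and a number. This rule uses no measured value, but it was set with earlier results of these data known. There were 44 such genes among the 36109 genes (21534 protein-coding) in the deposited transcript tables, and all 44 genes of this form in M39 were listed. They held 222 of the 118489 listed transcripts. By the structures their chains are known to form, 11 were fibrillar, 6 basement membrane (type IV), 6 beaded filament (type VI), 9 fibril-associated (FACIT), 4 network and anchoring, 4 transmembrane, 2 multiplexin and 2 of other kinds.

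RNA was sequenced from aortic ECs (3 libraries of Hmox2+/+ and 3 of Hmox2-/- mice) and from whole hearts (4 libraries of Hmox2+/+ and 3 of Hmox2-/- mice), all from mice kept in room air, and the comparison of genotypes within each tissue asks how the loss of heme oxygenase 2, an enzyme that breaks down heme, changes gene expression. The Hmox2+/+ mice were littermate controls, the study describes the sequenced mice as young, and their sex is not given in the sources used here. The sources used here name no promoter or Cre that limits the deletion to a cell type. Labels give each library a number within its group, and whether an EC and a heart library share a mouse is not stated, so each library counted as independent.

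The libraries held 26067147 to 31619776 estimated counts, except heart Hmox2+/+ replicate 1 with 7268626. Hmox2 was at 63.9 to 76.2 CPM (counts scaled to library size) in ECs of Hmox2+/+ mice and 12.6 to 14.7 CPM in those of Hmox2-/- mice, and at 37.3 to 42.5 and 7.53 to 8.90 CPM in heart tissue. The 4 Y-linked genes checked summed to 107 to 209.7 CPM in 11 libraries and to 6.15 and 7.501 CPM in EC Hmox2-/- replicates 2 and 3, so these 2 libraries stood apart from the other EC libraries in a way that moves with the genotype. The EC libraries held endothelial markers (8 genes, summed TPM 666 to 1319 in Hmox2+/+ and 1509 to 1655 in Hmox2-/-), but also fibroblast markers (8 genes, 1064 to 2339 and 2488 to 3514 TPM), smooth muscle markers (6 genes, 1962 to 3154 and 593 to 2257 TPM), adipocyte markers (5 genes, 2641 to 3861 and 2791 to 3365 TPM) and cardiomyocyte markers (6 genes, 82.5 to 551 and 5.14 to 7.86 TPM). None of these markers was at 0 in all EC libraries of a genotype.

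Collagens are secreted as trimers of alpha chains that wind into a triple helix, which needs glycine as the first residue of each repeated triplet. Fibrillar chains (types I, III and V) form the cross-striated fibrils that give tissue its tensile strength and are made chiefly by fibroblasts and smooth muscle cells. Type IV chains form the sheet-like network of the basement membrane under endothelium and around cardiomyocytes, type VI chains form beaded filaments beside it, and the multiplexins (types XV and XVIII) sit at the basement membrane zone.

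The coding sequences carried this split between the classes. Counted on the longest coding transcript of each gene, with a run being at least 4 codon triplets in a row that open with a glycine codon, the longest run of the 11 fibrillar genes held 216 to 344 triplets (median 338). In the 6 type IV genes the longest run held 39 to 66 triplets, and the repeat was broken into 16 to 24 runs. Pieces of 60 coding bases are shown to let the difference be read, with glycine codons of the runs in capitals, from GRCm39 with the GENCODE M39 annotation. The pieces of Col1a1 (chr11:94830277-94830735, plus strand, exons 6 to 8) and Col3a1 (chr1:45362922-45364543, plus strand, exons 5 to 6) open their longest runs, which went on for 338 and 344 triplets. Those of Col4a1 (chr8:11286475-11287868, minus strand, exons 18 to 19) and Col4a2 (chr8:11466057-11470617, plus strand, exons 20 to 21) show the first break between long runs, where the spacing of the capitals is lost and then starts again.
Col1a1: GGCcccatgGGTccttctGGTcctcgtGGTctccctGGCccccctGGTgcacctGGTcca
Col3a1: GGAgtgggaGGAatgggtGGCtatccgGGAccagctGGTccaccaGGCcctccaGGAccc
Col4a1: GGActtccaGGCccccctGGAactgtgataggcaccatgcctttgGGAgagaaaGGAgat
Col4a2: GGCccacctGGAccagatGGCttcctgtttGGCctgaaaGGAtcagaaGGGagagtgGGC

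Type IV genes also lie start to start. All 6 lie as head-to-head pairs, Col4a1 with Col4a2, Col4a3 with Col4a4 and Col4a5 with Col4a6, whose gene starts were 355, 158 and 1282 bases apart on GRCm39. The RefSeq promoter table, on GRCm38.p6, held 38 windows of 250 bases before to 50 bases after a start for 35 of the 44 genes. The windows of Col4a1 (chr8:11312777-11313076, minus strand) and Col4a2 (chr8:11312555-11312854, plus strand) are shown because they are the 2 strands of overlapping sequence, with the 78 shared bases in capitals.
Col4a1: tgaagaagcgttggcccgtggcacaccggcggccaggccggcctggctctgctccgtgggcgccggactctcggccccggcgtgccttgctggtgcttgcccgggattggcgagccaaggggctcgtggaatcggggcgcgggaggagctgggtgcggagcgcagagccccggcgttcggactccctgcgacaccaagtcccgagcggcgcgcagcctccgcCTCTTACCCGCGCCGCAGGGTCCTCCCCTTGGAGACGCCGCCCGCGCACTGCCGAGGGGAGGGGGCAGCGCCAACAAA
Col4a2: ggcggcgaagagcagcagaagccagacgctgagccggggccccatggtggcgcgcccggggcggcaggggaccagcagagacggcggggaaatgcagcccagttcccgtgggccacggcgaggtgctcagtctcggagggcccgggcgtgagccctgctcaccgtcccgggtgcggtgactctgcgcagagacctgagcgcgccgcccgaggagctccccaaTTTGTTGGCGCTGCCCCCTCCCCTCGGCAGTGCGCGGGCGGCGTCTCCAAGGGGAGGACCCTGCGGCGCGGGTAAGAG
The letters GGGCGG, searched on both strands as the GC box, were in both windows, in 23 of the 38 collagen windows (60.5%) and in 35.7% of all 32851 windows. CCCACCC was in neither of these 2 windows, in 18 of the 38 collagen windows (47.4%) and in 17.5% of all windows. The windows of Col4a5 and Col4a6 did not overlap, and Col4a3 had no window.

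In Hmox2+/+ mice, levels per transcript length (TPM, the deposited unit that is scaled to transcript length) placed different chains at the top in the 2 tissues. In ECs the 3 highest were Col1a2 with 226 ± 74.0 TPM (SD, n = 3), Col3a1 with 214 ± 51.4 TPM and Col1a1 with 132 ± 40.3 TPM, the chains of types I and III, and neighbours in this order lay within their SDs. Together they made 57.7% of the summed collagen TPM, and Col4a1 followed with 61.0 ± 7.09 TPM, below Col1a1 by more than their SDs. In heart tissue the order was Col4a1 with 45.2 ± 9.27 TPM (n = 4), Col4a2 with 34.4 ± 6.94 TPM, Col3a1 with 23.9 ± 3.32 TPM, Col1a2 with 12.8 ± 1.56 TPM and Col6a2 with 11.7 ± 1.73 TPM, and neighbours in that order lay within their SDs except Col4a2 with Col3a1 and Col3a1 with Col1a2. Summed over the 44 genes, ECs of Hmox2+/+ mice held 991 ± 247 TPM and heart tissue 188 ± 30.7 TPM. Fibrillar chains made 65.1 ± 1.78% of the collagen TPM in ECs and 28.3 ± 1.31% in heart tissue, and type IV chains 11.5 ± 1.24% and 46.2 ± 1.24%. Members over 10 TPM numbered 14 in ECs and 7 in heart tissue, and 11 members were under 0.1 TPM in each.

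Tested between the tissues of Hmox2+/+ mice, 29 of 37 members passed (edgeR's quasi-likelihood test, Benjamini-Hochberg adjusted p of at most 0.05), 21 lower and 8 higher in heart tissue, where 65.8% of all genes passed (33.7% lower and 32.1% higher). The major chains of types I, III and V were among the lower ones, with log2 fold changes of -3.28 for Col1a1, -3.19 for Col1a2, -2.21 for Col3a1, -3.20 for Col5a2 and -1.63 for Col5a1. The minor type V chain Col5a3, named here after its values were seen, was higher in heart tissue (1.21). The type IV genes went both ways. Col4a1, Col4a2 and Col4a5 were higher in heart tissue (0.49, 1.21 and 0.55), and Col4a3, Col4a4 and Col4a6 were lower (-2.24, -2.003 and -4.13). Of the multiplexins, Col15a1 was higher (0.75) and Col18a1 lower (-3.31) in heart tissue. RNA of ECs and hearts was isolated with different kits, so tissue and kit cannot be told apart. The EC libraries also held the fibroblast, smooth muscle and adipocyte marker RNA given above. The part of these cells in the collagen levels was not tested.

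**Figure D1:**
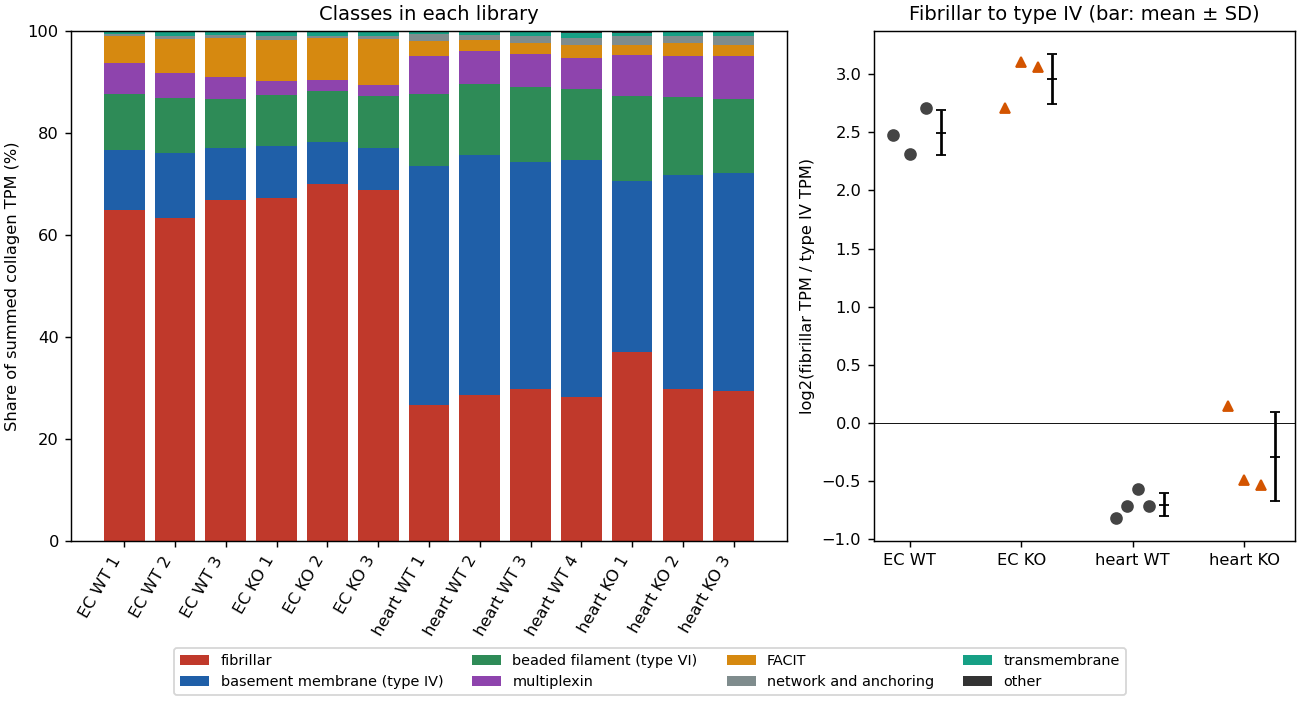
Left, stacked bars of the share of summed collagen TPM (%) taken by each class in each of the 13 libraries; right, log2 of summed fibrillar TPM over summed type IV TPM, with a point per library and mean ± SD beside it. Fibrillar chains fill most of the EC bars and type IV chains the largest part of the heart bars except in heart Hmox2-/- replicate 1, the single heart library with a log2 ratio above 0, at 0.15.

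In heart tissue, collagen chain genes were lower in Hmox2-/- mice or did not pass the test. Of the 31 members tested, 12 passed and all 12 were lower, where 16.2% of all 13816 genes tested were lower and 17.2% higher. They were 5 of the 6 type IV genes, 3 of 8 fibrillar genes tested (Col1a2, Col5a1 and Col27a1), 2 of 4 type VI genes tested (Col6a3 and Col6a6), Col22a1 of the FACIT class and Col7a1 of the anchoring fibrils. With a log2 fold change of at least 1 in size as well, 5 were DEGs (Col4a3, Col6a3, Col27a1, Col22a1 and Col7a1), where 6.71% of all genes were. Both counts include Col7a1, which passed the filter on low counts through the Hmox2+/+ hearts alone, so its fall is a description. Among the 31 members, 25 had a fold change below 0, and the median log2 fold change was -0.36 against -0.01 over all genes tested. In bulk tissue fewer cells of a type and less RNA per cell cannot be told apart.

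The type IV chains of the basement membrane were the class with most members lower. Col4a1 (chr8:11248423-11362826) and Col4a2 (chr8:11362471-11499287), which form the common basement membrane trimer, were the most abundant. Here and in the following paragraphs values are given first for the Hmox2+/+ and then for the Hmox2-/- libraries, in the order of their replicate numbers. Col4a1 was at 328, 310.0, 266 and 258 CPM in the 4 Hmox2+/+ hearts and at 195, 205 and 213 CPM in the 3 Hmox2-/- hearts, a log2 fold change of -0.51 (adjusted p = 0.0058, SE 0.11). Col4a2 was at 257, 259.8, 208 and 213 CPM and 127, 153 and 148 CPM, a change of -0.72 (adjusted p = 0.0017, SE 0.12). For both genes every Hmox2-/- heart was below every Hmox2+/+ heart. The chains of the other network known from kidney and lung, Col4a3 (chr1:82564642-82699780) and Col4a4 (chr1:82426144-82564800), were lower in level. Col4a3 was at 4.46, 4.22, 4.99 and 4.18 CPM and at 1.56, 2.15 and 2.21 CPM, a 2.26-fold lower level with a log2 fold change of -1.18 (adjusted p = 0.0016, SE 0.19). Col4a4 was at 12.6, 10.01, 10.4 and 9.45 CPM and 4.99, 4.84 and 6.31 CPM, a change of -0.96 (adjusted p = 0.0015, SE 0.15). Their ranges did not overlap between genotypes. Col4a5 (chrX:140258354-140472231), their partner chain, was at 37.6, 38.5, 47.99 and 43.04 CPM and 31.5, 31.2 and 31.7 CPM with a change of -0.42 (adjusted p = 0.012, SE 0.11), and its ranges did not overlap either. Col4a6 had 7 to 12 and 18 to 22 counts per library and did not pass (0.27 on the log2 scale, adjusted p = 0.64, SE 0.40). Reads of Col4a1 and Col4a2, and of Col4a3 and Col4a4, overlap on opposite strands around their starts, where counts without strand cannot be told apart, and 3.94% and 4.10% of the 31-base words of Col4a1 and Col4a2 were shared.

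Among the fibrillar genes, the abundant chains of types I and III were at the edge of the test or did not pass. Col1a1 (chr11:94827050-94843868) and Col1a2 (chr6:4504814-4541555) form type I collagen and Col3a1 (chr1:45350698-45395840) type III. Col1a1 was at 47.1, 52.7, 40.1 and 37.4 CPM in Hmox2+/+ and 38.5, 37.4 and 34.1 CPM in Hmox2-/- hearts, with overlapping ranges and a log2 fold change of -0.27 (adjusted p = 0.12, SE 0.13). For Col3a1 the values were 149.9, 134, 129 and 118 CPM and 151, 108 and 99.9 CPM, with a change of -0.15 (adjusted p = 0.44, SE 0.14), and Hmox2-/- replicate 1 was the highest of the 7 hearts. Col1a2 passed narrowly, with 73.2, 73.6, 76.4 and 64.1 CPM and 66.9, 53.4 and 51.9 CPM and a change of -0.32 (adjusted p = 0.046, SE 0.11). Its ranges overlapped, and it did not pass when any 1 of 5 of the 7 hearts was left out (Hmox2+/+ replicate 1, 2 or 3, or Hmox2-/- replicate 2 or 3; adjusted p 0.091 to 0.17). Type V chains start and limit the width of type I fibrils. Col5a1 (chr2:27776397-27929526) was lower in every Hmox2-/- heart, at 27.7, 29.8, 27.2 and 27.5 CPM and 19.7, 17.4 and 19.4 CPM with a change of -0.57 (adjusted p = 0.002, SE 0.10). Its partner Col5a2 (chr1:45412554-45542442) was at 21.6, 20.3, 19.7 and 16.2 CPM and 20.6, 17.5 and 19.3 CPM with a change of -0.01 (adjusted p = 0.95, SE 0.12). The ratio of Col5a2 to Col5a1 TPM lay between 0.768 and 0.993 in Hmox2+/+ hearts, against 1.14 to 1.31 with Hmox2 deleted. Col27a1 (chr4:63132241-63253228), a minor fibrillar chain known from cartilage, was at 3.12, 3.39, 3.12 and 2.58 CPM and 1.205, 1.15 and 1.11 CPM, a 2.64-fold lower level with a log2 fold change of -1.40 (adjusted p = 0.00099, SE 0.21).

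Of the 4 type VI chains tested in heart tissue, the 2 with the longest transcripts were lower. Col6a5, named here after its values were seen, was not tested there, with 0 to 1 counts in Hmox2+/+ and 2 to 29 in Hmox2-/- hearts. Col6a1 (chr10:76543440-76562283) and Col6a2 (chr10:76429660-76459549), 2 of the chains of the common beaded filament, did not pass. Col6a1 was at 46.4, 48.1, 47.1 and 39.9 CPM and 46.3, 36.4 and 35.9 CPM (-0.20 on the log2 scale, adjusted p = 0.22, SE 0.12), and Col6a2 at 54.6, 49.9, 50.1 and 42.97 CPM and 51.9, 44.1 and 37.8 CPM (-0.14 on the log2 scale, adjusted p = 0.4, SE 0.12). Their ranges overlapped. Col6a3 (chr1:90693645-90771780), the long chain of the same filament, was at 26.8, 25.1, 21.6 and 20.6 CPM in Hmox2+/+ hearts and 9.401, 10.95 and 11.9 CPM in Hmox2-/- hearts, with no overlap and a log2 fold change of -1.12 (adjusted p = 0.0002, SE 0.13). In TPM, Col6a3 made 0.253 to 0.407 of Col6a1 in Hmox2+/+ hearts, against 0.161 to 0.198 with Hmox2 deleted. Col6a6 (chr9:105564724-105705561), which can stand in for Col6a3 in the trimer, was at 10.4, 11.1, 10.9 and 11.6 CPM and 5.905, 7.35 and 8.14 CPM with a change of -0.63 (adjusted p = 0.0064, SE 0.14). Both are long, with longest transcripts of 10106 and 8781 bases, against 4100 and 4912 for Col6a1 and Col6a2.

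Of the remaining members, the multiplexins did not pass in heart tissue. Col15a1 (chr4:47207582-47313179) was at 65.9, 55.9, 49.1 and 45.5 CPM and 48.03, 40.7 and 36.7 CPM with a change of -0.36 (adjusted p = 0.064, SE 0.14). Col18a1 (chr10:76888012-77002390), whose end fragment is endostatin, was at 9.22, 11.05, 12.03 and 9.56 CPM and 12.05, 14.4 and 10.3 CPM with a change of 0.21 (adjusted p = 0.29, SE 0.15). The largest fold changes were in scarce genes. Col22a1 (chr15:71667644-71906095), a FACIT chain known from tissue junctions such as that of muscle and tendon, was at 0.744, 1.004, 1.64 and 2.73 CPM and 0.294, 0.544 and 0.359 CPM (5, 29, 43 and 77 counts and 10, 18 and 12 counts), a change of -2.01 (adjusted p = 0.0072, SE 0.45). Col7a1 (chr9:108782647-108813943), the chain of anchoring fibrils, held 4, 9, 13 and 16 counts in Hmox2+/+ and 4, 3 and 5 counts in Hmox2-/- hearts, with a change of -1.95 (adjusted p = 0.013, SE 0.50). Pooled over the libraries it held 12 and 42 counts in Hmox2-/- and Hmox2+/+ hearts, a ratio of 0.256 after scaling to library size, with an exact 95% interval for counting error of 0.123 to 0.496. Col7a1 passed the filter on low counts through the Hmox2+/+ hearts alone, the only member to do so in this tissue. The other 4 FACIT, 2 network and 3 transmembrane genes tested had changes between -1.04 and 0.90 and did not pass. In heart tissue 13 members were not tested, and none of them held more than 29 counts in a library.

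**Figure D2:**
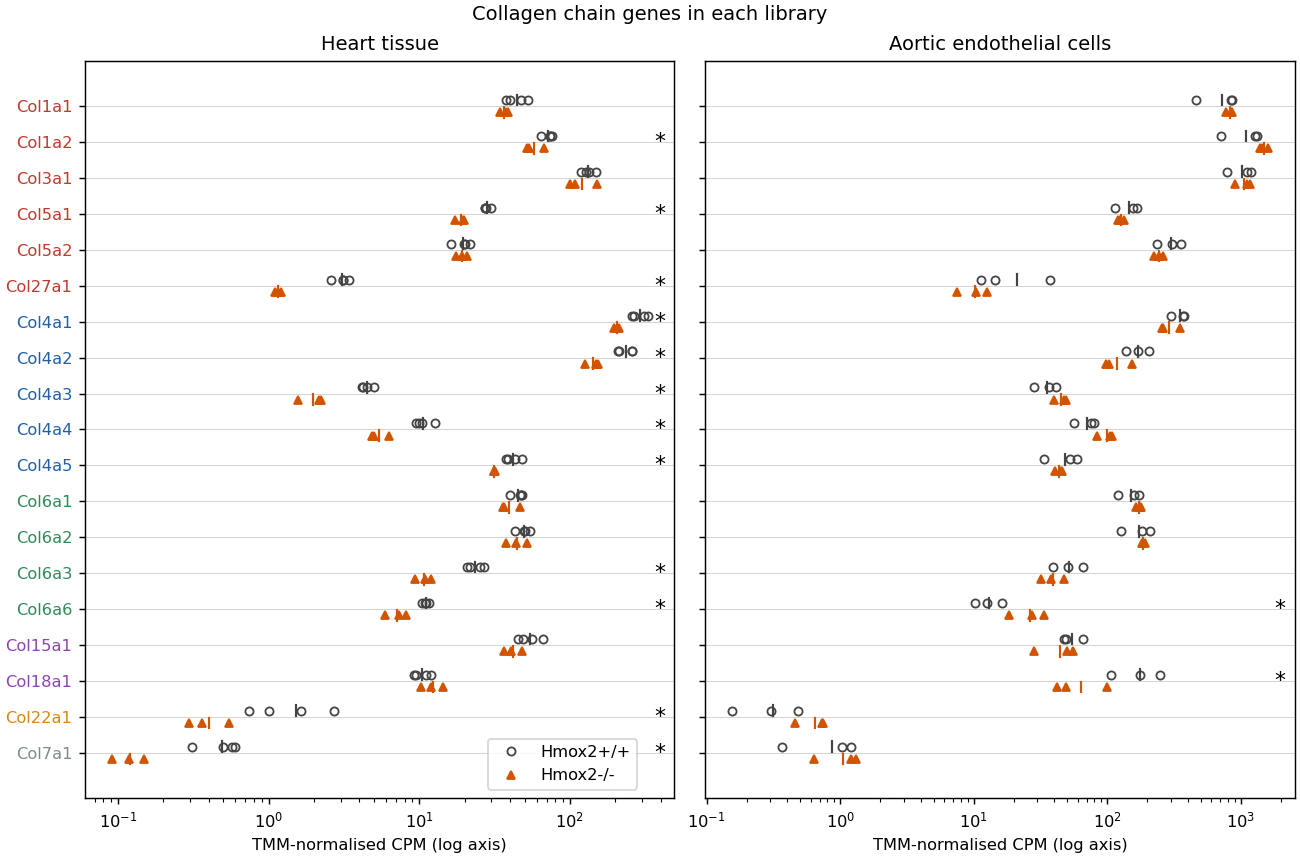
TMM-normalised CPM on a log axis for the 19 collagen chain genes given in full, in heart tissue (left) and aortic ECs (right); open circles are Hmox2+/+ libraries, triangles Hmox2-/- libraries, vertical ticks the means, an asterisk an adjusted p of at most 0.05, and gene names are coloured by class. In heart tissue the triangles of the type IV genes shown lie left of the circles without overlap, while for Col1a1, Col3a1, Col6a1 and Col6a2 the ranges of triangles and circles overlap.

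Collagen genes have long transcripts, and in heart tissue the change of all genes followed transcript length. The members tested had longest transcripts of 3162 to 11511 bases (median 6450), against a median of 3438 over all genes tested. All genes over 8000 bases had a median log2 fold change of -0.51 and 52.4% of them were lower, while those up to 1000 bases had a median of 0.60 and 7.16% were lower. Of the 8 members over 8000 bases 7 were lower, with a median of -1.04, and of the 10 members of over 6000 and up to 8000 bases 4 were lower, with a median of -0.40, where 37.6% of all genes of that length were lower with a median of -0.35. Across the 31 members, log2 fold change and log2 length had a Pearson r of -0.33 and a Spearman rho of -0.39, and across all 13816 genes -0.32 and -0.51. These are descriptions across genes, which share the 7 libraries and are not independent replicates. In ECs the medians of the length bins ranged from -0.30 to 0.05, and r was 0.13 over the 36 members tested.

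A fit with an offset for the trend with length and GC content in each library was therefore set beside the heart results. With it, 9 members passed, 6 lower and 3 higher, where 11.8% of all genes were lower and 14.2% higher, and the median over the members was -0.12. The 6 lower members were all among the 12 above, namely Col4a2 at -0.38 (adjusted p = 0.0064, SE 0.08), Col4a3 at -0.77 (adjusted p = 0.006, SE 0.16), Col4a4 at -0.48 (adjusted p = 0.03, SE 0.14), Col6a3 at -0.64 (adjusted p = 0.0012, SE 0.10), Col27a1 at -0.98 (adjusted p = 0.0071, SE 0.22) and Col22a1 at -1.63 (adjusted p = 0.023, SE 0.46). The other 6 no longer passed. Col4a1 was at -0.17 (adjusted p = 0.19, SE 0.09), Col4a5 at -0.13 (adjusted p = 0.44, SE 0.11), Col5a1 at -0.11 (adjusted p = 0.54, SE 0.12) and Col1a2 at -0.12 (adjusted p = 0.52, SE 0.12). Col6a6 was at -0.23 (adjusted p = 0.13, SE 0.11) and Col7a1 at -1.47 (adjusted p = 0.056, SE 0.51). The 3 that passed as higher only with the offset were Col12a1 (1.39), Col18a1 (0.47) and Col23a1 (0.64), and Col12a1 and Col23a1 are named here after their values were seen. Whether length itself, RNA quality or expression moved with the genotype was not tested.

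**Figure D3:**
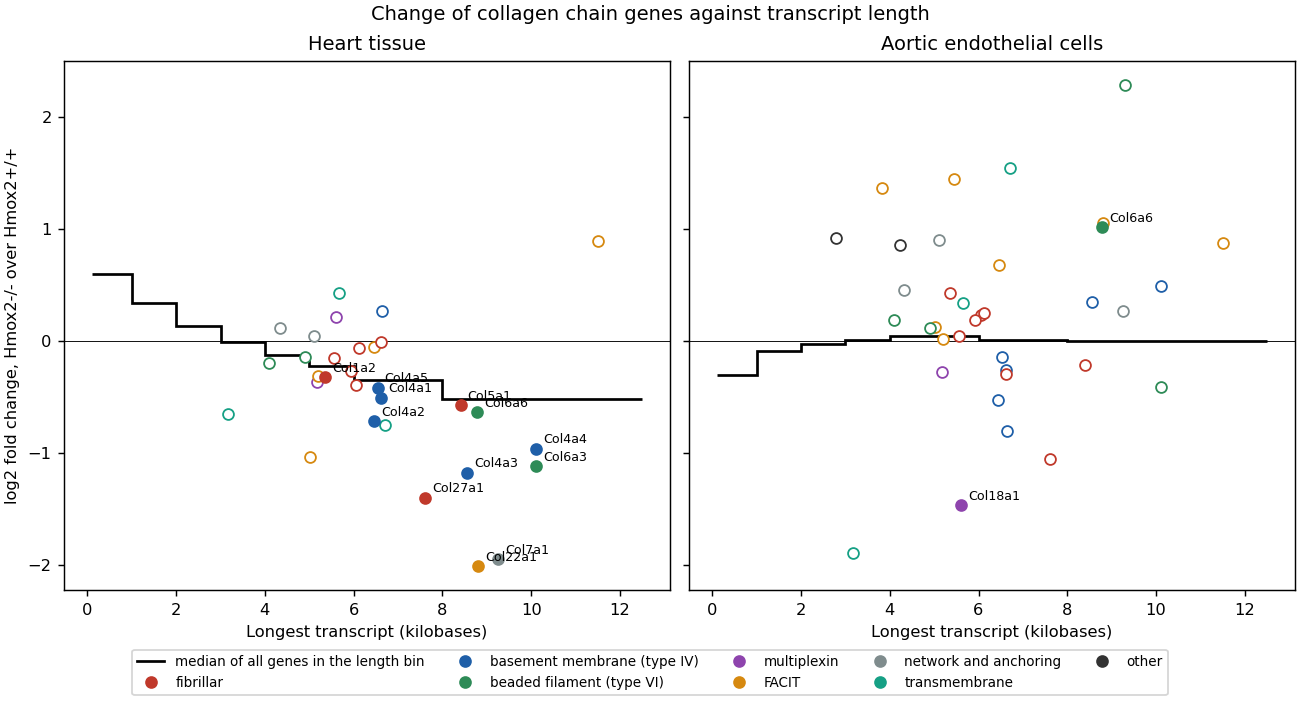
Log2 fold change (Hmox2-/- over Hmox2+/+) against the longest transcript in kilobases for each collagen chain gene tested, in heart tissue (left) and aortic ECs (right); points are filled where the adjusted p is at most 0.05 and coloured by class, and the black line is the median of all genes tested in each length bin. In heart tissue the line falls from 0.60 to -0.51 and most filled points lie on or below it, while in ECs it stays between -0.30 and 0.05.

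**Figure D4:**
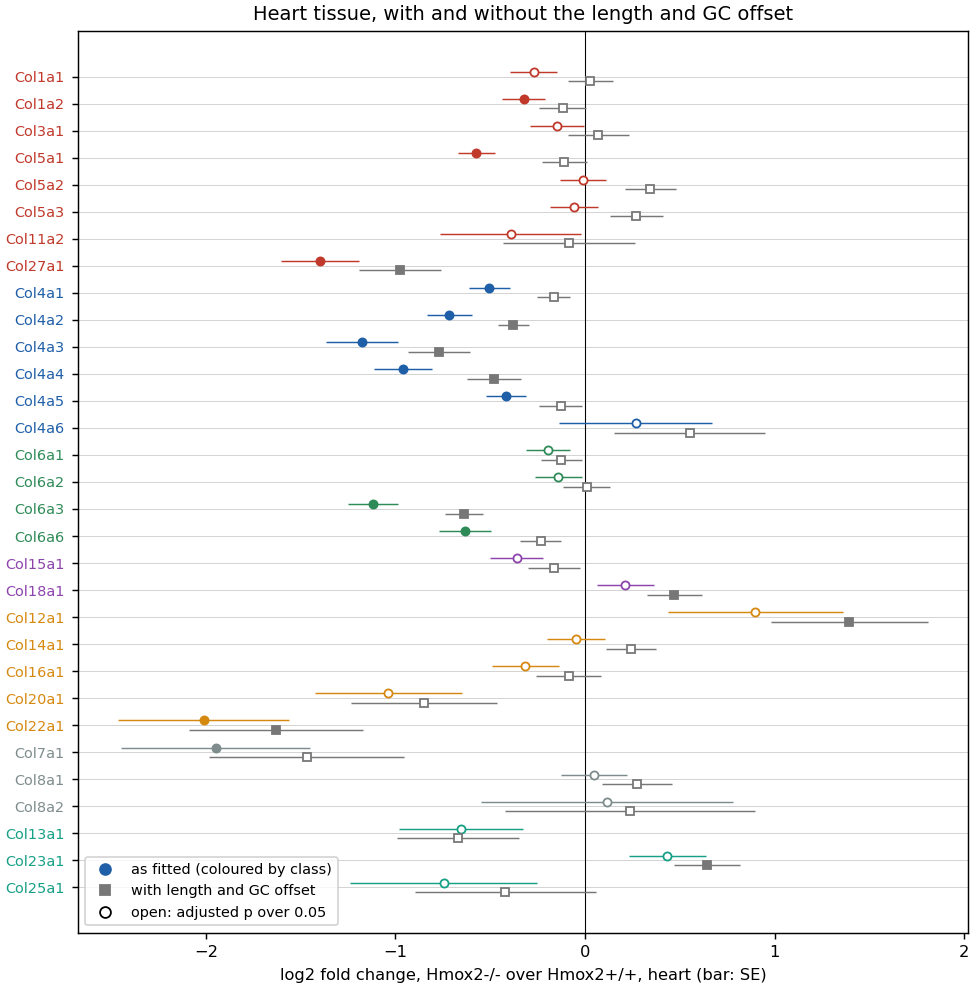
Log2 fold changes with SE of the 31 collagen chain genes tested in heart tissue, as fitted (circles) and with the offset for length and GC content (squares); filled symbols have an adjusted p of at most 0.05. The squares lie to the right of the circles for nearly every gene, and Col4a2, Col4a3, Col4a4, Col6a3, Col27a1 and Col22a1 keep filled squares below 0.

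Other measures differed with the genotype in heart tissue. Mitochondrially encoded genes took 57.6% to 65.6% of the TPM in Hmox2+/+ hearts, against 34.5% to 43.4% in the Hmox2-/- group, which raises the TPM of all other genes in the latter, so levels between genotypes are given in CPM after TMM normalization. Leaving these genes out of the fit left 12 members past the test. Marker sums in TPM were higher in Hmox2-/- hearts for endothelial (108 to 147 against 184 to 200.4), fibroblast (196 to 235 against 302 to 381) and smooth muscle genes (116 to 150.5 against 169 to 231). Relative to the endothelial marker sum, Col4a1 TPM lay between 32.9% and 40.3% in Hmox2+/+ hearts, against 17.3% to 20.7% in the Hmox2-/- group. Relative to the fibroblast marker sum, Col1a2 was 5.56% to 6.48% and 3.65% to 3.86%, and Col1a1 2.71% to 4.13% and 1.89% to 2.41%. In the fit of TMM-normalised counts the median log2 fold change was 0.09 over the 8 endothelial markers (3 higher, 1 lower), 0.28 over the 8 fibroblast markers (1 higher, 2 lower) and 0.72 over the 6 smooth muscle markers (3 higher, 1 lower). Pericyte markers (5 genes) went the other way, with a median of -0.52 (0 higher, 3 lower), or -0.16 with the offset (0 higher, 1 lower). Their TPM sums were 132 to 167 in Hmox2+/+ and 141 to 187 in Hmox2-/- hearts. The part of these cells in the result was not tested.

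In aortic ECs few collagen chain genes passed. Of 36 members tested, 1 was higher and 1 lower in Hmox2-/- ECs, where 10% of all 15301 genes tested were higher and 8.06% lower, and both were DEGs (9.28% of all genes were). At an unadjusted p under 0.05 there were 13, and DESeq2 called 9. The median log2 fold change over the members was 0.24 against -0.02 over all genes, with 25 members above 0 and 11 below. CPM ranges of the genotypes did not overlap for 11 of the 36, where 40.7% of all genes did not overlap. In heart tissue these were 11 of 31, where 40.4% did not.

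Col18a1 was the member that fell. It was at 248, 107 and 175 CPM in ECs of Hmox2+/+ mice and 100.2, 49.2 and 41.7 CPM in those of Hmox2-/- mice, a 2.77-fold lower level with a log2 fold change of -1.47 (adjusted p = 0.043, SE 0.40). Its ranges did not overlap, but Hmox2-/- replicate 1 was close to the lowest Hmox2+/+ library. A transcript of 5063 bases held 84.0% to 92.9% of the Col18a1 TPM in the 6 EC libraries. The gene span of Col18a1 overlaps that of Slc19a1 on the opposite strand, and counts from shared sequence cannot be told apart without strand. Of the sequence words of Col18a1, of the length used above for Col4a1, 0.54% were shared with other genes. The gene that shared the most was Zbtb37, not Slc19a1. The smooth muscle marker sum was 593 to 2257 TPM in these Hmox2-/- ECs, against 1962 to 3154 TPM, and 2 of its 6 genes passed as lower. Col18a1 TPM was 1.51%, 1.31% and 1.35% of the smooth muscle marker sum in the Hmox2+/+ ECs and 1.03%, 1.56% and 1.55% in the Hmox2-/- ECs, with overlapping ranges. Relative to the endothelial marker sum it was 2.71% to 6.80% and 0.595% to 1.49%. The part of smooth muscle RNA in the fall was not tested.

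Col6a6 was the member that rose. Its values were 12.6, 10.2 and 16.3 CPM and 18.5, 27.1 and 33.8 CPM, a 2.03-fold higher level with a log2 fold change of 1.02 (adjusted p = 0.033, SE 0.25), and every Hmox2-/- library was above every Hmox2+/+ library. Col6a6 TPM was 0.0955% to 0.121% of the fibroblast marker sum in Hmox2+/+ ECs, against 0.0681% to 0.157% in the Hmox2-/- group, with overlapping ranges, and the part of fibroblast RNA was not tested. The gene span of Col6a6 overlaps that of Pik3r4 on the opposite strand. Of the sequence words of Col6a6, 5.17% were shared with other genes, and the gene that shared the most was Clasp1, not Pik3r4. Both calls depended on single libraries. Neither passed without EC Hmox2+/+ replicate 1, without EC Hmox2-/- replicate 2 or without EC Hmox2-/- replicate 3, Col18a1 did not pass without EC Hmox2+/+ replicate 3 and Col6a6 not without EC Hmox2+/+ replicate 2. With a term for Y-linked expression above 10 CPM, the log2 fold changes of Col18a1 and Col6a6 were -0.82 and 0.50. In the 4 EC libraries above that cut they were -0.81 and 0.51. Both fits compare the genotypes through Hmox2-/- replicate 1 alone, whose spread was taken to be that of the others. They are in effect 1 comparison and cannot decide whether the calls hold. With the offset for length and GC content, Col6a6 passed at 1.13 and Col18a1 did not (-1.31 on the log2 scale, adjusted p = 0.075, SE 0.42), while Col12a1 (0.99) and Col4a4 (0.62) passed, so that 3 members were higher and none lower, where 8% of all genes were higher and 14.8% passed in either direction.

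The chains abundant in the EC libraries did not pass. Col1a2 was at 1274, 709 and 1321 CPM and 1592, 1399 and 1449 CPM, a change of 0.43 (adjusted p = 0.28, SE 0.26), and its ranges did not overlap. Col1a1 was at 864, 463 and 842 CPM and 777, 864 and 839 CPM (0.19 on the log2 scale, adjusted p = 0.61, SE 0.25), and Col3a1 at 1112, 784 and 1191 CPM and 912, 1172 and 1111 CPM (0.05 on the log2 scale, adjusted p = 0.89, SE 0.22). In each of these 3 genes Hmox2+/+ replicate 2 was the lowest of the 6 EC libraries. Relative to the fibroblast marker sum, Col3a1 TPM lay between 11.7% and 17.4% in Hmox2+/+ ECs, against 5.51% to 8.25% in the Hmox2-/- group, beside the higher marker sum of the latter. Col5a1 was at 157, 114 and 168 CPM and 132, 125 and 121 CPM (-0.21 on the log2 scale, adjusted p = 0.37, SE 0.16) and Col5a2 at 304, 235 and 356 CPM and 242, 262 and 226 CPM (-0.30 on the log2 scale, adjusted p = 0.26, SE 0.18), both with overlapping ranges. Col27a1 was at 37.3, 11.4 and 14.4 CPM and 7.44, 10.4 and 12.6 CPM (-1.05 on the log2 scale, adjusted p = 0.14, SE 0.44), with Hmox2+/+ replicate 1 far above the others.

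The type IV genes had fold changes in both directions in ECs, and none passed. Col4a1 was at 376, 298 and 371 CPM and 353, 259.9 and 259 CPM (-0.26 on the log2 scale, adjusted p = 0.33, SE 0.18) and Col4a2 at 204, 137 and 169 CPM and 153, 97.3 and 103 CPM (-0.53 on the log2 scale, adjusted p = 0.13, SE 0.22). In both, Hmox2-/- replicates 2 and 3 were below the Hmox2+/+ libraries and replicate 1 was among them. Col4a3 was at 36.7, 28.1 and 41.6 CPM and 39.6, 48.8 and 47.4 CPM (0.35 on the log2 scale, adjusted p = 0.17, SE 0.17), and Col4a4 at 75.3, 56.7 and 79.5 CPM and 84.01, 106 and 108 CPM (0.49 on the log2 scale, adjusted p = 0.076, SE 0.16). Col4a5 was at 59.03, 33.4 and 52.5 CPM and 45.9, 45.1 and 40.6 CPM (-0.14 on the log2 scale, adjusted p = 0.65, SE 0.20). Col4a6 had the largest type IV change in ECs, at the edge of the test and with no overlap. It was at 16.9, 9.79 and 16.7 CPM and 9.60, 7.59 and 7.72 CPM (-0.80 on the log2 scale, adjusted p = 0.053, SE 0.24). In TPM the ratio of Col4a5 to Col4a6, which start in opposite directions from neighbouring positions, lay between 3.38 and 3.80 in Hmox2+/+ ECs, against 5.83 to 6.47 in the Hmox2-/- group, a description with no test.

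The other chains given in full did not pass in ECs either. Col6a1 was at 174, 120.5 and 159.8 CPM and 174, 165 and 178 CPM (0.19 on the log2 scale, adjusted p = 0.42, SE 0.16), and Col6a2 at 209, 126 and 182 CPM and 193, 186 and 182 CPM (0.11 on the log2 scale, adjusted p = 0.69, SE 0.19). Col6a3 was at 65.3, 39.4 and 50.8 CPM and 32.1, 37.6 and 47.3 CPM (-0.41 on the log2 scale, adjusted p = 0.21, SE 0.21). A retained-intron transcript of Col6a3 of 646 bases held 45.6% to 53.7% of its TPM in Hmox2+/+ ECs, noncoding transcripts held 15.01% to 32.2% in Hmox2-/- ECs, and with counts from length-scaled TPM Col6a3 passed as lower (log2 fold change -1.02, adjusted p = 0.027). Col15a1 was at 65.3, 47.7 and 49.1 CPM and 28.2, 49.8 and 55.5 CPM (-0.28 on the log2 scale, adjusted p = 0.46, SE 0.25). Col22a1 held 13, 9 and 5 counts and 21, 12 and 20 counts (1.06 on the log2 scale, adjusted p = 0.2, SE 0.53) and Col7a1 28, 11 and 39 counts and 18, 34 and 33 counts (0.27 on the log2 scale, adjusted p = 0.74, SE 0.53). All 7 FACIT genes tested had a fold change above 0, between 0.02 and 1.45, and none passed. The 8 members not tested in ECs held at most 18 counts in any library.

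The change differed between the tissues for 7 of the 37 members tested for an interaction of tissue and genotype, where 28.8% of all 15938 genes passed, 16.2% with a higher and 12.7% with a lower change in heart tissue. For Col18a1 the heart change minus the EC change was 1.72 (adjusted p = 0.01, SE 0.43). The other 6 had a lower change in heart tissue than in ECs. Col4a3 had an interaction of -1.49 (adjusted p = 0.00082, SE 0.24) and its neighbour Col4a4 of -1.41 (adjusted p = 0.00074, SE 0.22), while that of Col4a1 was -0.20 (adjusted p = 0.5, SE 0.21) and that of Col4a2 -0.15 (adjusted p = 0.7, SE 0.26). Col6a6 had an interaction of -1.61 (adjusted p = 0.0018, SE 0.29), higher in ECs and lower in heart tissue, each past its own test. For the scarce genes Col22a1, Col7a1 and Col25a1 it was -3.00 (adjusted p = 0.0092, SE 0.74), -2.20 (adjusted p = 0.037, SE 0.73) and -2.28 (adjusted p = 0.04, SE 0.77), and Col25a1, a transmembrane chain with 2 to 20 counts per library, is named here after its values were seen. The heart value of Col7a1, tested there only because of the Hmox2+/+ hearts, is a description. No fibrillar gene passed the interaction. With the offset for length and GC content 6 members passed, namely Col18a1, Col22a1, Col4a3, Col4a4 and Col6a6 in the same directions, and Col4a6 at 1.29.

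**Figure D5:**
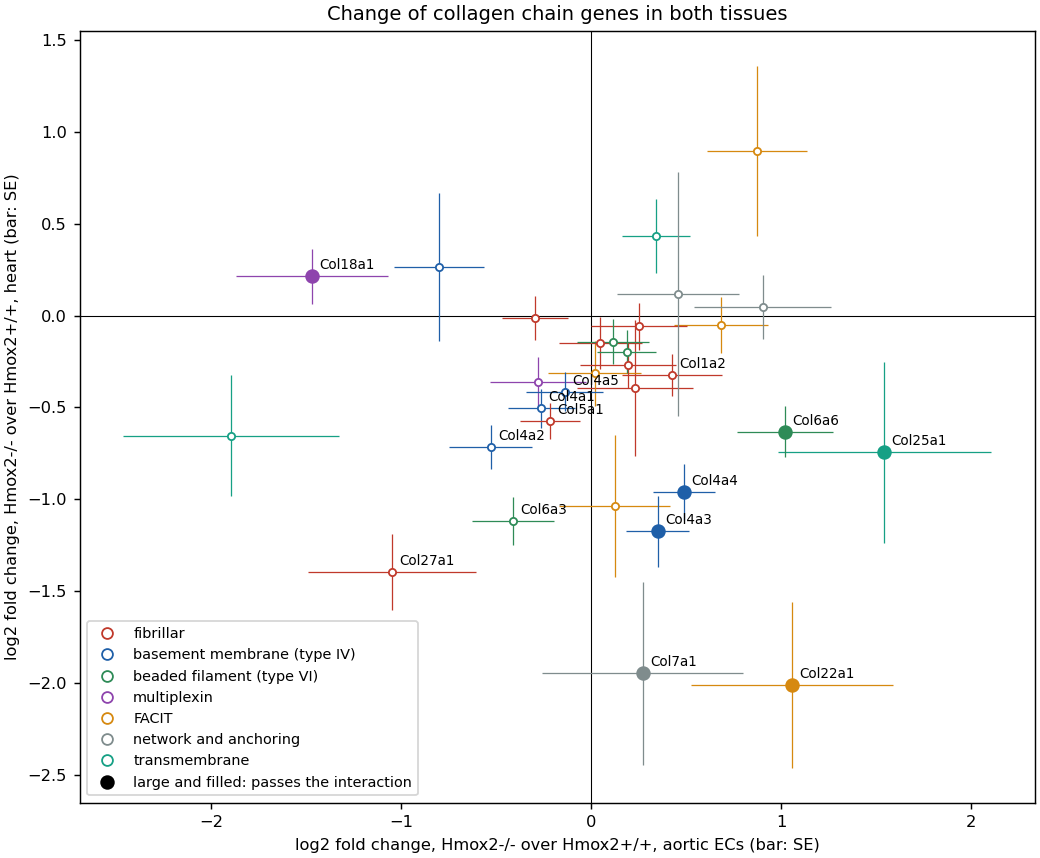
Log2 fold change (Hmox2-/- over Hmox2+/+) with SE in aortic ECs (horizontal) and heart tissue (vertical) for the 31 collagen chain genes tested in both, coloured by class; large filled points pass the test of the difference between tissues. Col18a1 lies low in ECs and near 0 in heart tissue, and Col4a3, Col4a4, Col6a6, Col22a1, Col25a1 and Col7a1 lie above 0 in ECs and below 0 in heart tissue.

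Set against each other, fibrillar chains had a higher share relative to basement membrane chains in Hmox2-/- mice in both tissues, a description with no test. The log2 ratio of summed fibrillar TPM to summed type IV TPM was -0.82, -0.72, -0.58 and -0.72 in Hmox2+/+ hearts and 0.15, -0.49 and -0.54 in Hmox2-/- hearts, a difference of means of 0.41 that fell to 0.19 without heart Hmox2-/- replicate 1. The ranges did not overlap. That replicate held the highest Col3a1 of the Hmox2-/- hearts, 36.1, 24.3 and 23.00 TPM in replicates 1 to 3, beside 32.5, 38.1 and 40.5 TPM of Col4a1. In ECs the log2 ratio was 2.48, 2.32 and 2.71 in Hmox2+/+ and 2.71, 3.10 and 3.06 in Hmox2-/- libraries, a difference of 0.46. The highest Hmox2+/+ library and Hmox2-/- replicate 1 lay side by side, at 2.707 and 2.714. The higher values were those of Hmox2-/- replicates 2 and 3, the libraries with low Y-linked expression, and what set these 2 apart was not tested. With a mean over the chains of log2(TPM + 0.1), which gives scarce chains the same weight as abundant ones, the EC difference was 0.05. Fibrillar TPM was 53.2 ± 7.74 in Hmox2+/+ hearts (SD, n = 4) and 57.2 ± 8.72 in Hmox2-/- hearts (n = 3), and type IV TPM 87.3 ± 15.9 and 69.9 ± 8.27. These sums are raised in Hmox2-/- hearts by the smaller mitochondrial share of TPM. In the fit of TMM-normalised counts all 8 fibrillar genes tested were below 0 (median log2 fold change -0.30), and the 6 type IV genes had a median of -0.61. Neither the sums nor the ratio carry the offset for length and GC content.

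Genes that make, bind or surround collagen were counted in the same fits, from hand-written lists. Their counts stand beside the share of all genes that passed, which was 10% higher and 8.06% lower in ECs and 17.2% higher and 16.2% lower in heart tissue, or 14.2% and 11.8% in heart tissue with the offset for length and GC content, a fit chosen for these lists after seeing the data. Of the genes that modify, fold, cut and cross-link collagen, 32 were tested in each tissue. In ECs 5 were higher and 1 lower (median log2 fold change 0.30), and in heart tissue 3 were higher and 4 lower (median -0.000297), or 1 higher and 6 lower with the offset. None passed in both tissues, and 2 were DEGs, both in heart tissue. Adamts3, which removes the amino-terminal propeptide of fibrillar procollagen, was at 5.54 ± 0.747 CPM in Hmox2+/+ hearts (SD, n = 4) and 2.68 ± 0.706 CPM in Hmox2-/- hearts (n = 3), a change of -1.05 (adjusted p = 0.0041, SE 0.21). Tll2, a protease of the family that removes the carboxyl-terminal propeptide, was at 0.941 ± 0.211 CPM and 0.249 ± 0.0776 CPM, a change of -1.94 (adjusted p = 0.0041, SE 0.39). The Hmox2-/- mean was below the cut of the filter on low counts, 0.337 CPM. Tll2 was therefore tested because of the Hmox2+/+ hearts, and its change is a description. Of 9 collagen receptor genes tested, 1 was higher in ECs (median 0.46) and 2 lower in heart tissue (median -0.20), and none passed in heart tissue with the offset.

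The partners of type IV chains in the basement membrane, laminins, nidogens, perlecan, agrin and peroxidasin, were counted beside them. Of the 15 tested, 10 were lower and none higher in Hmox2-/- hearts, with a median log2 fold change of -0.44, where 16.2% of all genes were lower. With the offset 2 were lower and 1 higher, with a median of -0.06. In ECs 5 of the 15 were lower and 1 higher, with a median of -0.28. The 16 partners of collagen fibrils, such as small leucine-rich proteoglycans and fibronectin, had 5 higher and 2 lower in heart tissue (median 0.17), 6 higher and 1 lower there with the offset, and 4 higher and 1 lower in ECs (median 0.10), and Dcn, Lum and Dpt of this list are fibroblast markers as well. Of the 15 genes of the TGF-beta axis, the signal known to raise collagen transcription, 6 were lower and 1 higher in heart tissue (median -0.31), 5 lower and 3 higher there with the offset, and 2 were lower and none higher in ECs (median -0.19).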

How the data were processed

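RNA of aortic ECs and whole hearts was sequenced from oligo-dT directional libraries. The authors quantified it with kallisto 0.44.0 and deposited, per transcript, estimated counts (not whole, not normalized) and TPM (scaled to transcript length and to the same total in each library). The submitters' notes name mm10 and GRCh38.p13, and the study's methods a GRCm39 annotation. Transcripts were matched to GENCODE M39 by identifier (97.2% of 118489; the rest held 0.755% to 1.01% of counts), and deposited values were summed per gene.

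Summed estimated counts were rounded and tested with edgeR 4.0.16 in R 4.3.3 (filterByExpr with a minimum count of 10, TMM normalization, quasi-likelihood F-test, Benjamini-Hochberg adjustment over all genes tested). A gene passed at an adjusted p of at most 0.05, and DEGs also had a log2 fold change of at least 1 in size. ECs and hearts were fitted apart, and all 13 libraries together for the interaction and the tissue comparison. Fold changes are Hmox2-/- over Hmox2+/+ unless said otherwise. CPM values are TMM-normalised. The fits were checked on simulated counts.

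Genes given in full were the major chains of types I, III, IV, V and VI, the multiplexins, the members past the test in a tissue, and DEGs among collagen processing genes. Members and lists were chosen with earlier results of these data known. Alternatives were DESeq2 1.42.0, upper-quartile normalization, length-scaled TPM, no filter, no mitochondrially encoded genes and the offset. Others were the replicate block, 1 fit for all libraries, a Y-linked term and leaving out each library. Labels give no sex, so the Y-linked term split the libraries at 10 CPM summed over the 4 Y-linked genes. The fit to EC libraries above that cut and the offset for gene lists were chosen after seeing the data. Precision rests on the 3 or 4 libraries a group, and exact intervals cover counting error only. P-values measure the spread between these libraries, which the labels do not tie to separate mice. Protein sequences were not used here.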

Additional observations from a re-analysis of the deposited data

Results flagged for a closer look

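No value of the 19 genes given in full, or of the log2 ratio of fibrillar to type IV TPM, lay apart from its group by Dixon's test in the 20 sets of 4 Hmox2+/+ heart libraries tested, where chance marks about 1 in 20.

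The genotype difference differed between the tissues for 7 collagen chain genes by the interaction term of edgeR's quasi-likelihood test. The heart change minus the EC change was 1.72 on the log2 scale for Col18a1, -1.49 for Col4a3, -1.41 for Col4a4, -1.61 for Col6a6, -3.00 for Col22a1, -2.28 for Col25a1 and -2.20 for Col7a1. Col18a1 fell in ECs and did not pass in heart tissue, and Col6a6 rose in ECs and fell in heart tissue. Col4a3, Col4a4, Col22a1 and Col7a1 fell in heart tissue and did not pass in ECs, and Col25a1 passed in neither tissue alone. Col7a1 held 3 to 5 counts in Hmox2-/- hearts and was tested in heart tissue only because of the Hmox2+/+ hearts, so its heart value, which enters the interaction, is a description. EC Hmox2-/- replicates 2 and 3, with low Y-linked expression, enter each of these differences, and their part was not tested.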

How the results depend on the processing

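Estimated counts of scarce chains, 3 or 4 libraries a group and the depth of heart Hmox2+/+ replicate 1 limit what can be seen. The count of 2 collagen chain genes past the test in ECs was 9 with DESeq2, 4 with length-scaled TPM and 4 with no filter. It was 5 with the replicate block, 9 with all libraries in 1 fit, and 0 to 4 leaving out 1 library. It was 0 without EC Hmox2+/+ replicate 1, EC Hmox2-/- replicate 2 or EC Hmox2-/- replicate 3, and 4 without EC Hmox2+/+ replicate 3. No count is given for the Y-linked term or the EC libraries above its cut, since both rest on 1 Hmox2-/- library. The heart count of 12 was 5 with the fold criterion as well and 9 to 18 leaving out 1 library, with 18 without heart Hmox2-/- replicate 1. Leaving out 1 library gave 5 to 10 for the interaction and 27 to 30 between tissues. The EC difference in the log2 ratio of fibrillar to type IV TPM was 0.67 for the major chains alone, 0.047 for the mean of log2(TPM + 0.1) and 0.37 to 0.58 leaving out 1 library, and the heart difference 0.19 to 0.54. The cause was not tested.

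Among genes given in full, changes of sign occurred only in values that did not pass in either fit. With the offset they were Col1a1, Col3a1, Col5a2 and Col6a2 in heart tissue (0.028, 0.069, 0.34 and 0.0084) and Col15a1 and Col4a2 for the interaction (0.059 and 0.015). Length-scaled TPM gave 0.066 for Col15a1 and 0.15 for Col6a3 (interaction), 0.020 for Col4a5 (ECs) and 0.65 for Col7a1 (tissues). No filter gave 0.0042 for Col5a2 in heart tissue. The Y-linked term and the EC libraries above its cut gave -0.17 and -0.17 for Col3a1, 0.019 and 0.024 for Col4a1, and -0.44 and -0.44 for Col7a1. Both fits rest on the same Hmox2-/- library. Leaving out 1 library spanned 0, in ECs, from -0.048 to 0.34 for Col1a1, -0.11 to 0.16 for Col3a1, -0.35 to 0.031 for Col4a5, -0.071 to 0.28 for Col6a2 and -0.096 to 0.58 for Col7a1, in heart tissue from -0.096 to 0.049 for Col5a2, for the interaction from -0.29 to 0.14 for Col15a1, -0.35 to 0.0036 for Col3a1 and -0.29 to 0.089 for Col4a2, and between tissues from -0.48 to 0.21 for Col7a1.

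Deviations of same-numbered libraries correlated at 0.22, 0.08 and 0.06 in ECs and -0.08, 0.12 and 0.06 in heart tissue. Those of differently numbered libraries ranged from -0.24 to 0.17 in ECs and from -0.17 to 0.08 in heart tissue. With 3 or 4 libraries a group, these values cannot decide whether the replicate numbers pair the libraries. With the replicate block 5 members passed in ECs, 10 in heart tissue, 7 for the interaction and 28 between tissues.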
